A study of Danio rerio with 31 samples.

Results

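The genes nmbb, pnocb and inhba each encode a secreted peptide signal, and they are 3 of the 15648 genes measured on these zebrafish brain arrays. They were chosen by identifier and symbol from the annotation (ENSDARG00000077167, ENSDARG00000024189 and ENSDARG00000024759) after an earlier look at the same data, because their values were higher in the telencephalon of wild fish than in that of domesticated fish. That contrast is therefore given below as a description, with no test. Telencephalon and midbrain were taken from zebrafish aged 1 year, all labelled as controls, of 4 populations. Nadia and Pargana (Pargana North in the sample titles) are wild populations, and Scientific Hatchery and Transgenic Mosaic 1 are domesticated ones. RNA came from individual brain samples, and each of the 31 samples was hybridised to its own single-colour array. There were 15 telencephalon arrays, from 7 males and 8 females, and 16 midbrain arrays, from 7 males and 9 females. Each population gave 4 arrays per region, 2 of each sex, except Scientific Hatchery. That population had 1 male and 2 females for the telencephalon, and 1 male and 3 females for the midbrain. The labels say nothing on whether the fish of a population were siblings or shared a tank, so the p-values measure the spread between these samples. Each class of domestication is represented by 2 populations.

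Neuromedin B is a bombesin-like peptide that acts on a Gq-coupled receptor, and in mammals it is known for effects on smooth muscle, feeding and stress. Zebrafish have 2 genes for it, nmba and nmbb. Prepronociceptin, encoded in zebrafish by pnoca and pnocb, is the precursor of nociceptin, which belongs to the opioid peptide family but binds its own Gi-coupled receptor, OPRL1, rather than the classical opioid receptors. The inhba gene encodes the activin beta A subunit, whose dimers are activins, and which together with the alpha subunit forms inhibin. Activins signal through serine/threonine kinase receptors and SMAD proteins and are held back by follistatins. In rodent neurons the subunit is induced by synaptic activity. The symbol table writes the inhba row as INHBA, and which of the zebrafish paralogs of the mammalian gene it measures is not given there.

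Values are the deposited log2 expression values, so that a difference of 1 is a doubling. The array medians lay between 9.57 and 9.74. The labelled tissue was checked on marker genes by limma. Of 12 telencephalon markers, 10 were called higher in the telencephalon arrays and 1 lower, and 14 of 14 midbrain markers were called lower. Of all genes 21.6% were called higher there and 22.1% lower. Among the telencephalon arrays, that of Pargana male 140 had the lowest mean correlation with the rest, 0.959, where the highest was 0.975. One fish is in part at odds with its label on the 5 genes called for sex in the telencephalon. Pargana 21 is labelled female, but its DIO2 value in the midbrain, 11.66, lay above those of the other 8 females (9.85 to 10.65) and inside the range of the 7 males (11.62 to 12.46). Its telencephalon value of DIO2, 10.79, lay between the other females (9.09 to 9.80) and the males (11.04 to 11.83), and its HSD17B3 value there, 11.28, lay in the male range (11.01 to 11.90). Its RGS4 and CCK values there, 10.07 and 11.55, lay above every other female (up to 9.87 and 10.46) and inside the male ranges. In the midbrain its HSD17B3 value, 10.59, lay in the male range (10.14 to 10.98). Its IGF1 value in the telencephalon, 8.36, went the other way. It lay inside the range of the other females (7.54 to 9.33) and below every male (9.01 to 10.78). In the midbrain IGF1 was 9.895, above the other females (up to 9.596) and just below the lowest male (9.900). The sex label of this fish is thus in doubt but not settled, and the results on sex are repeated without both of its arrays.

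In the telencephalon, nmbb was highest in one sex of each wild population and lowest in the domesticated fish. The 2 Nadia females had log2 values of 9.66 and 9.02, and the 2 Nadia males 10.69 and 10.63. In Pargana the order of the sexes was turned, with 10.85 and 10.99 in the females and 9.58 and 9.30 in the males. The domesticated fish lay lower: the Scientific Hatchery females had 8.34 and 8.35 and the male 7.89. The Transgenic Mosaic 1 females had 8.63 and 8.001, and the males 9.39 and 8.53. Of the 8 wild arrays, 6 exceeded the highest domesticated array. The exceptions were the lower Nadia female and Pargana male 140, which fell below the Transgenic Mosaic 1 male at 9.39.

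For pnocb the telencephalon values were close together in Nadia, with 9.73 and 9.27 in the females and 9.94 and 9.71 in the males. Pargana had 10.24 and 9.66 in the females, and 9.76 and 7.97 in the males. The low value is again that of male 140. Scientific Hatchery had 8.96 and 8.55 in the females and 8.90 in the male. Transgenic Mosaic 1 had the lowest values, with 7.94 and 7.18 in the females and 8.80 and 8.25 in the males. Apart from Pargana male 140, the 7 other wild arrays exceeded every domesticated one.

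The activin subunit gene inhba was the member with the smallest pooled spread inside populations in the telencephalon. The pooled SD within populations was 0.35 for inhba, against 0.69 for nmbb and 0.65 for pnocb. This did not hold in each population. In Scientific Hatchery the SD of inhba was 0.49, against 0.26 for nmbb and 0.22 for pnocb, and in Nadia pnocb had 0.28 against 0.32 for inhba. Nadia females had 9.49 and 9.50 and Nadia males 9.08 and 8.85, while Pargana females had 9.49 and 9.73 and Pargana males 9.82 and 9.31. Scientific Hatchery females had 7.68 and 7.51 and the male 8.43. Transgenic Mosaic 1 females had 8.37 and 7.91, and the males 7.58 and 7.62. No wild array overlapped a domesticated one: the lowest wild value was 8.85 and the highest domesticated value 8.43. Among all genes 0.128% had every wild telencephalon array above every domesticated one.

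**Figure D1:**
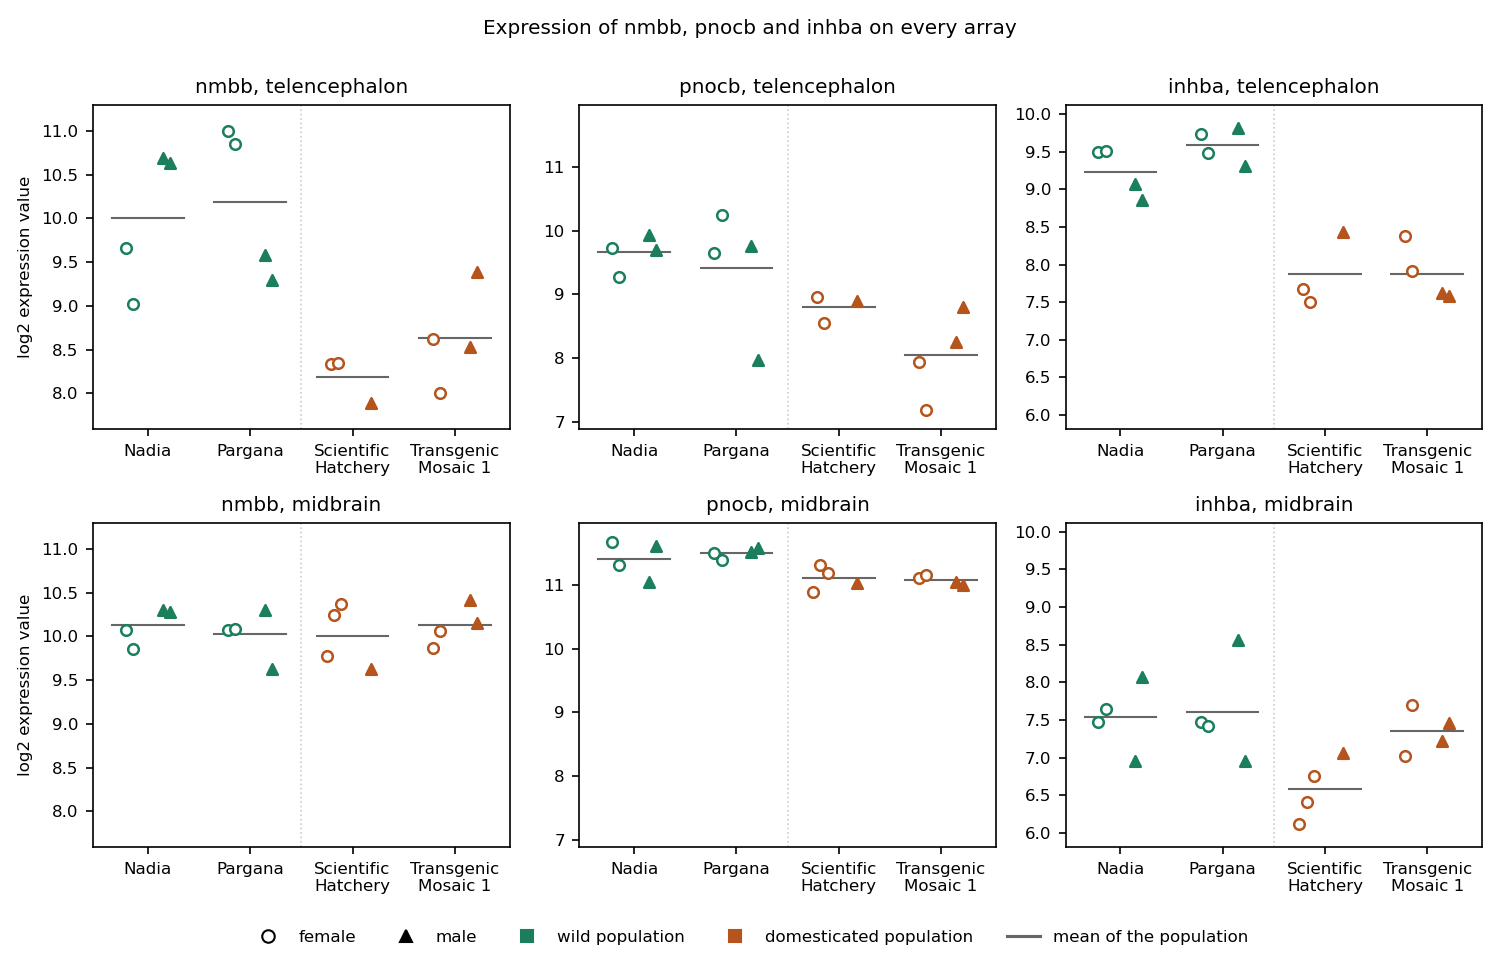
The log2 expression value of each gene on every array (vertical axis) is plotted by population (horizontal axis) for the telencephalon (upper row) and the midbrain (lower row), with open circles for females, filled triangles for males and a bar at the mean of the population. In the telencephalon the wild inhba values sit at 8.85 and above and the domesticated ones at 8.43 and below, and the sexes of Nadia and Pargana separate in opposite directions for nmbb.

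Expressed as a difference of population means with sex as a term, the wild telencephalon exceeded the domesticated one by 1.67 for nmbb (SE 0.27), by 1.11 for pnocb (SE 0.24) and by 1.55 for inhba (SE 0.22). These correspond to folds of 3.19, 2.15 and 2.93. Over all 15648 genes 1.91% passed an adjusted p of 0.05 in this contrast and 0.831% were higher in the wild fish. The rule used the contrast, so nothing is read from this share. By size of the difference nmbb ranked 19th, inhba 31st and pnocb 86th of all genes. Leaving out each array in turn gave 1.51 to 1.86 for nmbb, 0.93 to 1.35 for pnocb and 1.44 to 1.77 for inhba. Within females the differences were 1.80, 1.57 and 1.68 in that order (1.84, 1.42 and 1.74 without Pargana 21), and all 3 genes had every wild female above every domesticated female, as 3.09% of all genes did. Within males they were 1.63 for nmbb, 0.63 for pnocb and 1.25 for inhba, and of the 3 genes inhba alone had no overlap between the classes. The share of all genes with no overlap in that direction among males was 2.22%.

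The dissection may differ between fish, so markers of the neighbouring diencephalon and hypothalamus were scored on each telencephalon array. Their mean level after centring ranged from -1.06 to 0.98 in the 8 wild arrays and from -1.63 to 0.96 in the 7 domesticated ones, with means of 0.31 and -0.36. The median difference of the 14 marker genes between wild and domesticated fish was 0.44, against 0.01 for all genes. By limma 0 of the 14 were called, where 1.91% of all genes were, and 3 were under an unadjusted p of 0.05, where 15.4% of all genes were. No gene of the habenula (3 genes), olfactory (6), pituitary (6) or retina and lens (14) lists was called there either. Under an unadjusted p of 0.05 were 1, 2, 0 and 0 of these in that order. Their median differences were -0.13, -0.40, 0.10 and -0.09. The 2 lowest scores were those of the Transgenic Mosaic 1 females, -1.63 and -1.57, which also had the 2 lowest pnocb values. Within the domesticated arrays pnocb followed this score with Pearson r = 0.85 (exact permutation p = 0.0105, adjusted p = 0.252 over 24 correlations) and Spearman rho = 0.79 (p = 0.0480 by the exact permutation test). Without the 2 arrays farthest from the median score r was 0.87. Within the wild arrays r was 0.37 (exact permutation p = 0.382) and rho 0.83 (exact permutation p = 0.0154, adjusted p = 0.369). Without the 2 farthest arrays, those of Pargana female 13 and Nadia female 130, r was 0.97 over 6 arrays. This r rests largely on Pargana male 140, with a score of 0.09 and a pnocb value of 7.97. The others of the 6 had scores from 0.79 to 0.98 and pnocb values from 9.71 to 10.24. For nmbb r was 0.19 in the wild and 0.29 in the domesticated arrays (0.59 and 0.11 without the 2 farthest arrays). For inhba it was -0.35 and -0.16 (0.13 and -0.71 without them). With the score as a covariate the differences were 1.48 for nmbb, 0.91 for pnocb and 1.59 for inhba in the contrast that chose the genes. That fit had a single slope of the score for the arrays of both regions. The midbrain score of Scientific Hatchery male 57, -2.10, enters it, so these are not differences adjusted within the telencephalon alone. The part of the dissection in these differences was not tested. Fewer cells that express a gene and less RNA per cell cannot be told apart in these samples. Of 11 immediate early genes, which rise after neuronal activity, 0 were called between wild and domesticated telencephalon by limma (1.91% of all genes) and 1 was under an unadjusted p of 0.05 (15.4% of all genes), with a median difference of 0.32 against 0.01 over all genes.

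In the midbrain, whose wild and domesticated values did not choose the genes, 0 of the 3 genes passed the limma test between the classes, where 0.786% of all genes did. At an unadjusted p under 0.05 there was 1, inhba, and 11.4% of all genes. The nmbb values lay between 9.63 and 10.31 in the 8 wild arrays, with a median of 10.08, and between 9.63 and 10.42 in the 8 domesticated arrays, with a median of 10.10. The groups overlapped throughout. The difference was 0.01 (SE 0.26, adjusted p = 0.997, limma), with a 95% interval of -0.53 to 0.54. The fit shares 1 spread per gene between the regions. The SD of nmbb within a midbrain population was 0.21 to 0.36, against a pooled 0.69 in the telencephalon. For nmbb and pnocb the intervals and SEs of the shared fit are therefore wide for the midbrain and narrow for the telencephalon.

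For pnocb the midbrain values lay high and close together. The 8 wild arrays ran from 11.04 to 11.67 with a median of 11.51, and the 8 domesticated arrays from 10.89 to 11.31 with a median of 11.08. Of the wild arrays, 7 lay above the highest domesticated one, and the exception was Nadia male 98. The difference of 0.37 (SE 0.23, 95% interval -0.11 to 0.86) had an adjusted p of 0.600 by limma. With the midbrain fitted alone its SE was 0.10, since the shared fit takes its spread from the telencephalon as well, and the adjusted p was 0.0919.

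For inhba the midbrain values were more scattered. The wild arrays ran from 6.95 to 8.56, with a median of 7.48 and the highest value in Pargana male 85. The domesticated arrays ran from 6.11 to 7.70, with a median of 7.04. The 3 lowest of all 16 arrays were the Scientific Hatchery females at 6.11, 6.41 and 6.75. The wild fish were higher by 0.58 (SE 0.21, 95% interval 0.15 to 1.01), which did not pass the adjustment over all genes (adjusted p = 0.228, limma). The value rested on Scientific Hatchery: without that population it was 0.22 (adjusted p = 0.848), and without Transgenic Mosaic 1 it was 0.92 (adjusted p = 0.202). Pargana male 85 also had the highest midbrain score of the pituitary list, 2.98. Pargana female 13, with a score of 2.12, had an inhba value of 7.47. Of the 6 pituitary genes limma called 0 between the classes in the midbrain (0.786% of all genes). Under an unadjusted p of 0.05 were 4 (11.4% of all genes), and the median difference was 0.99. The part of the dissection in the midbrain differences was not tested. The differences in telencephalon minus those in midbrain were 1.67 for nmbb, 0.73 for pnocb and 0.97 for inhba, given without a test because the telencephalon values were used to choose the genes.

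Averaged over the 4 populations and both sexes, the regions differed for all 3 genes by limma. For nmbb the wild pairs of arrays, given below, showed no common direction. The telencephalon values that chose the genes enter these averages. Of all genes 43.6% passed in this comparison, 21.6% higher and 22.1% lower in the telencephalon, so that calls were frequent. The nociceptin precursor gene pnocb was lower in the telencephalon (log2 difference -2.29, SE 0.17, adjusted p = 3.23e-11), a fold of 0.205. Its telencephalon values had a median of 8.96 and reached 10.24, and its midbrain values started at 10.89, so that the regions did not overlap. The share of all genes without overlap of the regions was not counted. The gene inhba was higher in the telencephalon by 1.35 (SE 0.15, adjusted p = 5.11e-08), a fold of 2.55. Its regions overlapped, because the domesticated telencephalon values, from 7.51, reached into those of the midbrain.

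The region difference of nmbb, as a mean over the 4 populations, was -0.82 (SE 0.19, adjusted p = 0.000896, limma). Without Scientific Hatchery it was -0.49 and no longer passed the test (adjusted p = 0.0954), and without Transgenic Mosaic 1 it was -0.60 (adjusted p = 0.0474). The arrays of the 2 regions carry numbers that recur, which allows 15 pairs with the same number. In the 7 domesticated pairs nmbb was lower in the telencephalon every time, with a mean difference of -1.59 (SD 0.47). The share of all genes that were lower in each of these 7 pairs was not counted. In the 8 wild pairs nmbb was lower in 4 and higher in 4, with a mean of 0.02 (SD 0.68). The 4 wild pairs with the higher telencephalon were the 2 Nadia males and the 2 Pargana fish labelled female. Since low telencephalon values in domesticated fish were part of the choice of nmbb, this split by class is a description.

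The pairs ran one way for the other genes. For pnocb 15 of 15 pairs were lower in the telencephalon, as for 9.27% of all genes, with a mean difference of -2.28 (SD 0.82) and a range from -3.98 to -1.10. For inhba 15 of 15 pairs were higher in the telencephalon, as for 7.23% of all genes, with a mean of 1.36 (SD 0.76) and a range from 0.12 to 2.35. The 3 smallest inhba differences belonged to 3 of the 4 Transgenic Mosaic 1 fish.

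**Figure D2:**
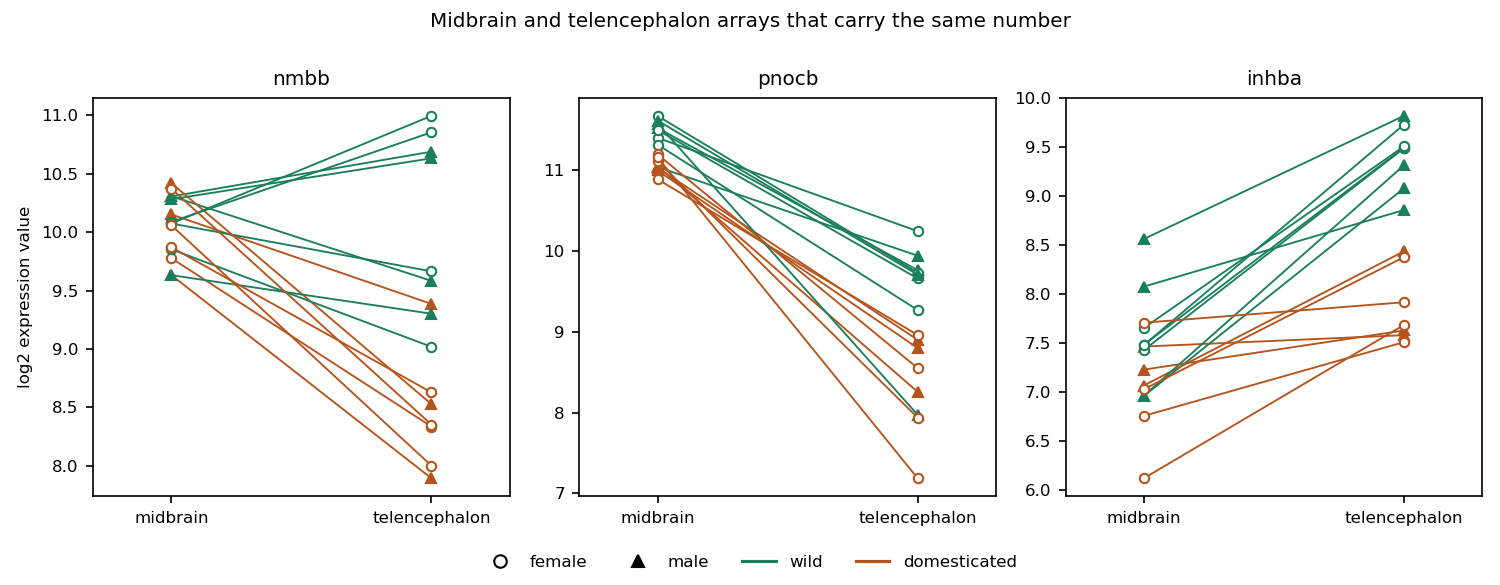
Each line joins the midbrain and the telencephalon log2 expression values of arrays that carry the same number (15 pairs, green wild and brown domesticated, open circles female and filled triangles male). All pnocb lines fall and all inhba lines rise from midbrain to telencephalon, whereas nmbb falls in 7 of 7 domesticated pairs and in 4 of 8 wild pairs.

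Averaged over the populations, no difference between males and females passed the test in any of the 3 genes, nor was any under an unadjusted p of 0.05. In the telencephalon the male minus female difference was 0.05 for nmbb (95% interval -0.51 to 0.61), 0.08 for pnocb (-0.42 to 0.58) and -0.15 for inhba (-0.60 to 0.29). In the midbrain it was 0.04 for nmbb (95% interval -0.51 to 0.60), -0.07 for pnocb (-0.56 to 0.43) and 0.19 for inhba (-0.25 to 0.63). Of all genes, 0.032% passed the limma test for sex in the telencephalon and 0.00639% in the midbrain. Under an unadjusted p of 0.05 were 10.7% of all genes in the telencephalon and 4.13% in the midbrain. Without both arrays of Pargana 21 the telencephalon values were 0.19, 0.26 and -0.19 in the order nmbb, pnocb and inhba, and those of the midbrain 0.06, -0.09 and 0.17. The sex difference was not shown to depend on the region either, with an adjusted p of 0.9998 for each gene by limma, in a test that called 0% of all genes. Without Pargana 21 the male minus female difference in telencephalon less that in midbrain was 0.13, 0.35 and -0.36, against 0.004, 0.15 and -0.34 with it, and none passed.

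Whether wild fish exceeded domesticated fish by more in one sex was tested as an interaction. In the telencephalon the effect in males minus that in females was -0.18 for nmbb (SE 0.31, adjusted p = 0.958), -0.94 for pnocb (SE 0.43, adjusted p = 0.720) and -0.44 for inhba (SE 0.42, adjusted p = 0.914) by limma. None passed, in a test that called 0.0767% of all genes, and 1, pnocb, was under an unadjusted p of 0.05, as were 6.68% of all genes. Without both arrays of Pargana 21 the values were -0.21, -0.79 and -0.50. Leaving out Pargana male 140 reduced the pnocb interaction to -0.49, and leaving out Pargana male 85 enlarged it to -1.38. In the midbrain the interactions were 0.20, 0.07 and -0.18 in the same order (0.20, 0.05 and -0.19 without Pargana 21). Again none passed, where 0.115% of all genes did, and none was under an unadjusted p of 0.05, where 3.95% of all genes were.

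Inside the wild telencephalon, the mean of nmbb was 10.66 in Nadia males and 9.34 in Nadia females, but 9.44 in Pargana males and 10.92 in Pargana females. Each of these cells holds 2 arrays, and the sexes did not overlap in either population. The male minus female difference in Nadia exceeded that in Pargana by 2.80 (SE 0.41, adjusted p = 0.00478, limma with a mean for each region, population and sex). In that test 0.147% of all genes were called. The contrast was chosen after the nmbb values had been seen, so its p-value is not that of an independent test. A crossing of the sexes in this direction without overlap was present in 5.04% of all genes. Fits that left out 1 array gave values from 2.48 to 3.12. Without both arrays of Pargana 21 the contrast was 2.87, but that fit leaves female 13 (10.99) as the only Pargana female array. At 10.85, Pargana 21 itself lay above both Pargana males, at 9.58 and 9.30. The contrast with this fish counted as a male is not given here. With the telencephalon fitted alone the same difference had an SE of 0.46 and an adjusted p of 0.155.

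Markers of the habenula and the midbrain were higher on average in the Nadia males than in the Nadia females. The mean score of 3 habenula markers on the telencephalon arrays was 0.56 and 2.56 in the Nadia males and -0.42 and -0.44 in the females, and that of 14 midbrain markers was 0.28 and 0.59 in the males and -0.12 and -0.51 in the females. The male with 2.56 had the highest score of both lists among the wild arrays. In Pargana the habenula scores were -0.11 and 0.06 in the males and -0.49 and -0.04 in the females, and the midbrain scores -0.25 and 0.14 in the males and 0.17 and -0.06 in the females. The diencephalon and hypothalamus scores were 0.98 and 0.79 in the Nadia males and 0.83 and -0.99 in the females. In Pargana they were 0.95 and 0.09 in the males and -1.06 and 0.91 in the females. Pituitary scores ran the other way in Nadia, with -0.27 and -0.17 in the males and 0.32 and 0.71 in the females. Scores of the telencephalon markers themselves were also higher in the Nadia males (0.30 and 0.20) than in the Nadia females (-0.01 and 0.04). In Pargana they were 0.01 and -0.19 in the males and -0.09 and 0.19 in the females. Without the array of the Nadia male with the habenula score of 2.56 the nmbb contrast was 2.83, with a single Nadia male array left. The part of these tissues in the nmbb contrast was not tested.

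The same contrast was 0.44 for nmbb in the midbrain (SE 0.41, adjusted p = 0.9997, limma; 0.43 without Pargana 21), where the values of all 4 cells lay between 9.63 and 10.31 and 0.0256% of all genes were called. The difference of the contrast between the regions, 2.36 (SE 0.58), did not pass (adjusted p = 0.758, with 0% of all genes called), so that it was not shown to be limited to the telencephalon. For pnocb the contrast in the telencephalon was 1.41 (SE 0.57, adjusted p = 0.322), and 1.12 without Pargana 21 (adjusted p = 0.522). It passed in 1 of the fits that left out an array, that without Pargana male 85 (2.31, adjusted p = 0.0114). For inhba it was -0.49 (SE 0.56, adjusted p = 0.784), and -0.37 without Pargana 21.

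Between the 2 wild populations no difference passed the limma test for the 3 genes, where 2.08% of all genes passed in the telencephalon and 1.41% in the midbrain. None was under an unadjusted p of 0.05 either, where 14.5% of all genes were in the telencephalon and 13.3% in the midbrain. Nadia minus Pargana in the telencephalon was -0.18 for nmbb (95% interval -0.94 to 0.57), 0.25 for pnocb (-0.43 to 0.93) and -0.35 for inhba (-0.96 to 0.25). In the midbrain it was 0.10 for nmbb (SE 0.37), -0.09 for pnocb (SE 0.33) and -0.06 for inhba (SE 0.29). The order of the population medians of nmbb in the telencephalon was Pargana (10.22), Nadia (10.15), Transgenic Mosaic 1 (8.58) and Scientific Hatchery (8.34). Averaged over the sexes, the neighbours within each class were not told apart. For nmbb this average joins opposite differences. The male mean was 10.66 in Nadia and 9.44 in Pargana, and the female mean 9.34 in Nadia and 10.92 in Pargana.

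The domesticated populations were likewise not told apart by limma, where 1.62% of all genes were called in the telencephalon and 0.939% in the midbrain. In each region 1 of the 3 genes was under an unadjusted p of 0.05, as were 15.1% of all genes in the telencephalon and 9.91% in the midbrain. Scientific Hatchery minus Transgenic Mosaic 1 in the telencephalon was -0.43 for nmbb (SE 0.40, adjusted p = 0.656, limma), 0.77 for pnocb (SE 0.36, adjusted p = 0.304) and -0.02 for inhba (SE 0.32, adjusted p = 0.986). The pnocb value ranged from 0.45 without the Transgenic Mosaic 1 female that had the lowest pnocb value to 1.01 without Transgenic Mosaic 1 male 99. In the midbrain the difference was -0.11 for nmbb, 0.01 for pnocb and -0.72 for inhba (SE 0.30, adjusted p = 0.374). For inhba the population means in the midbrain were 7.60 in Pargana, 7.54 in Nadia, 7.35 in Transgenic Mosaic 1 and 6.58 in Scientific Hatchery.

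**Figure D3:**
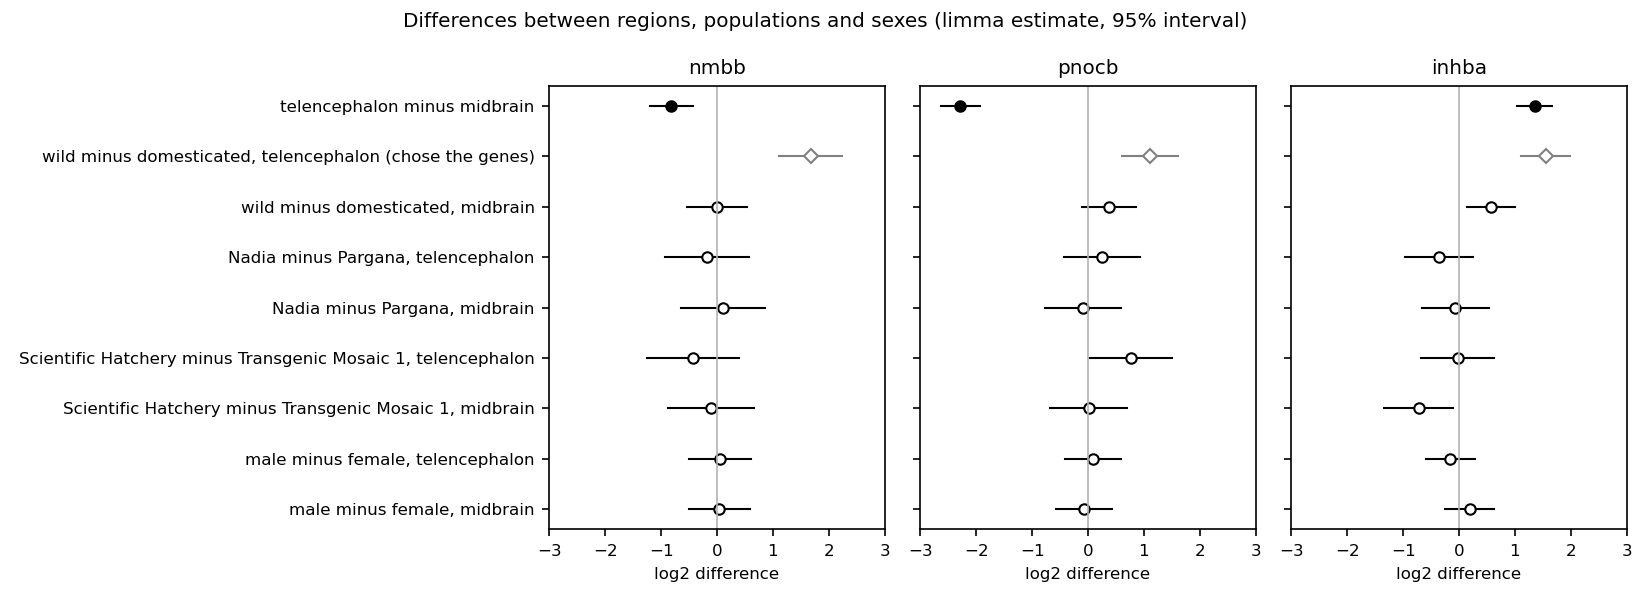
Differences on the log2 scale (horizontal axis, limma estimate with its 95% interval) between regions, classes, populations and sexes are plotted for each gene, without the interactions with sex, with filled circles where the adjusted p was under 0.05, open circles where it was not, and grey diamonds for the contrast that chose the genes. The filled circles are the region differences, at -0.82, -2.29 and 1.35.

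Whether the 3 genes moved together from fish to fish was examined within each class. Over the 12 correlations between pairs of them, each within the 7 or 8 arrays of one region and class, Pearson r ran from -0.42 to 0.61 and Spearman rho from -0.50 to 0.52. The highest, between nmbb and pnocb in the wild telencephalon, had r = 0.61 (exact permutation p = 0.0565, adjusted p = 0.678 over 24 correlations), and r = 0.70 without the 2 arrays farthest from the median of nmbb. Between midbrain and telencephalon arrays of the same number, r lay between -0.65 and 0.56 in 6 correlations. The lowest was that of pnocb in the 7 domesticated pairs (r = -0.65, exact permutation p = 0.116, rho = -0.75, p = 0.0663), which was -0.96 without the 2 farthest arrays, over 5 pairs. No correlation passed 0.05 after adjustment over the 24.

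No listed receptor or partner of the 3 peptides that has a row passed the test between wild and domesticated fish. Besides the 3 genes themselves, 4 bombesin-family genes, 10 opioid and nociceptin genes and 9 activin-pathway genes have a row. The lists were written with 9, 15 and 31 symbols in that order, the 3 genes among them. Symbols without a row, most of those in the activin list, were not tested. Between wild and domesticated fish 0 of these 23 genes passed in the telencephalon (1.91% of all genes) and 0 in the midbrain (0.786%). The median difference in the telencephalon was -0.09 for the bombesin list, 0.23 for the opioid list and 0.04 for the activin list, against 0.01 for all genes. At an unadjusted p under 0.05 the telencephalon gave 0, 3 and 3 genes of the bombesin, opioid and activin lists, and the midbrain 1, 1 and 2. Of all genes 15.4% were under that p in the telencephalon and 11.4% in the midbrain.

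Among the bombesin-family genes, GRPR, the receptor of gastrin-releasing peptide, differed by 0.18 (SE 0.14, adjusted p = 0.575) and the peptide gene grp by -0.38 (SE 0.31, adjusted p = 0.598) in the telencephalon, by limma. Neither value passed. Between the regions all 4 genes were called, 2 in each direction, where 43.6% of all genes were. The neuromedin B receptor gene NMBR was lower in the telencephalon (-1.29, SE 0.15) and the paralog nmba also had a negative difference (-0.91, SE 0.22), which is the direction of nmbb. GRPR (0.35) and grp (0.89, SE 0.21) were higher there. Both of the last pair differed between the domesticated populations: GRPR was higher in Scientific Hatchery than in Transgenic Mosaic 1 in the telencephalon by 0.83 (SE 0.21, adjusted p = 0.038, limma), and grp was lower in the midbrain, with a difference of -1.78 (SE 0.42, adjusted p = 0.037). The rows of nmba and grp are dim. Their means by region and population ran from 4.88 to 6.27 and from 4.93 to 6.98, where the lowest array median was 9.57.

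Of the opioid and nociceptin genes, one of 2 rows for the delta opioid receptor OPRD1 (ENSDARG00000037159) differed between wild and domesticated telencephalon by 0.58 (SE 0.19, adjusted p = 0.122, limma) and the proenkephalin gene PENK by 0.25 (SE 0.10, adjusted p = 0.193). The nociceptin receptor gene OPRL1 had the smallest p of the list in the midbrain, with a difference of -0.34 (SE 0.10, adjusted p = 0.130). Its telencephalon value was -0.15 (SE 0.11, adjusted p = 0.547). None of these passed. Between the regions 4 of the 10 were higher in the telencephalon and 1 was lower, against 21.6% and 22.1% of all genes. The paralog pnoca was among the higher ones (0.87, SE 0.17, adjusted p = 0.000219), and pnocb, outside the count, had -2.29. The other higher genes were OPRD1 (ENSDARG00000037159, 0.98), PENK (0.79) and the mu opioid receptor gene OPRM1 (0.38). The lower one was penka (-0.42), a second proenkephalin gene. The second row of OPRD1 (ENSDARG00000041660) had a region difference of -0.17 and was not called (adjusted p = 0.326, limma). Between wild and domesticated telencephalon that row differed by 0.03.

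Of the activin-pathway genes, FSTL3, a follistatin-like inhibitor of activin, had a wild minus domesticated difference of -1.63 in the telencephalon (SE 0.53, adjusted p = 0.116, limma). Its telencephalon values ran from 7.07 to 8.55 in Nadia and from 5.65 to 8.60 in Pargana. They ran from 9.12 to 10.74 in Scientific Hatchery, above every wild array, and from 6.98 to 9.72 in Transgenic Mosaic 1, which overlapped the wild arrays. One row of the signal transducer SMAD3 (ENSDARG00000036096) differed by 0.43 (SE 0.14, adjusted p = 0.106). In the midbrain the gene of the activin beta B subunit, INHBB, differed by -0.52 (SE 0.17, adjusted p = 0.191), a direction opposite to that of inhba, and neither passed. Between the regions 2 of the 9 genes were higher in the telencephalon and 4 were lower, against 21.6% and 22.1% of all genes. INHBB was lower there (-1.34, SE 0.13), as were the same row of SMAD3 (ENSDARG00000036096, -1.70, SE 0.09), FSTL3 (-0.95, SE 0.37) and the inhibin alpha subunit gene inha (-0.22, SE 0.08). The higher genes were the activin receptor genes ACVR1B (ENSDARG00000052142, 0.31) and ACVR2A (0.18). The rows of inha and INHBB are dim, with means by region and population from 4.91 to 5.40 and from 5.63 to 7.67.

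**Figure D4:**
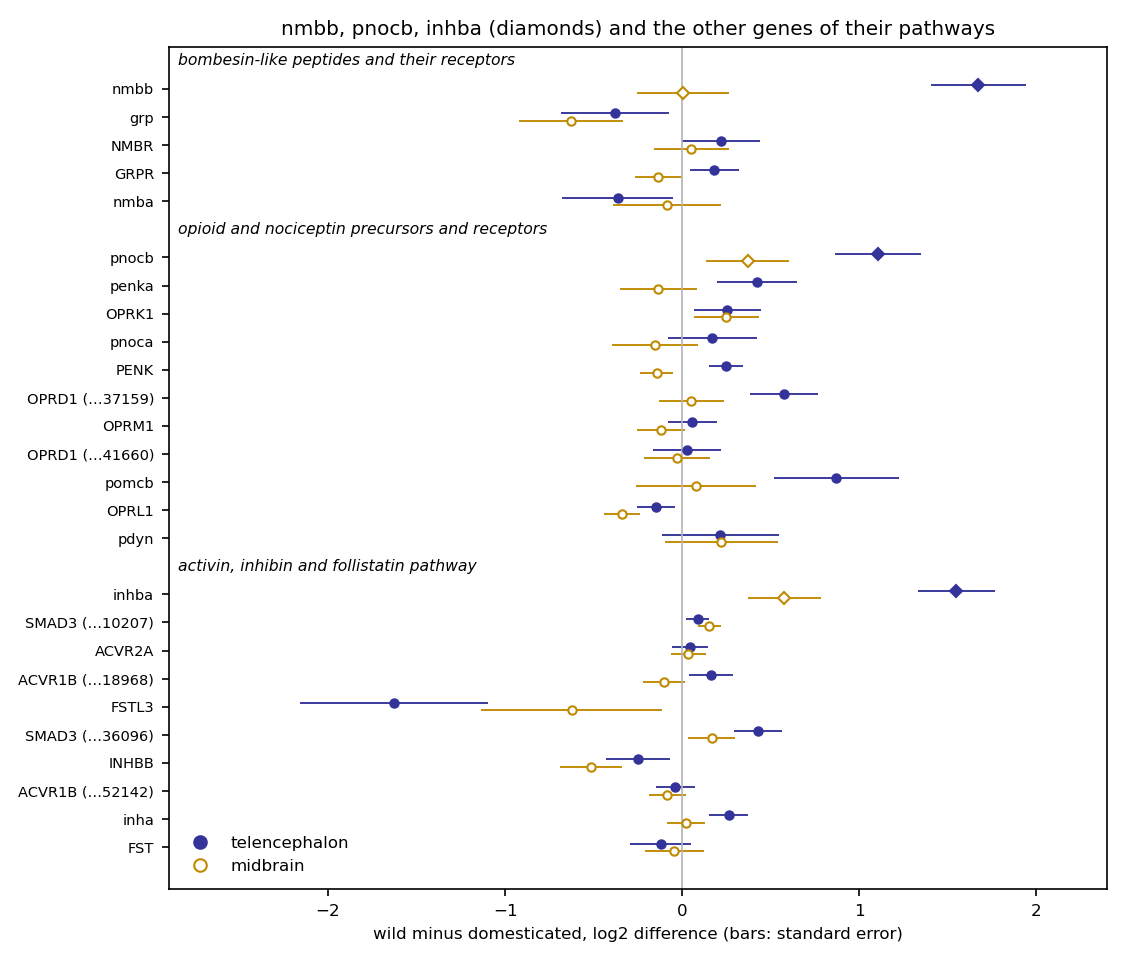
Wild minus domesticated log2 differences with their standard errors (horizontal axis) are plotted for nmbb, pnocb and inhba (diamonds) and for the other genes of their pathways (circles), in the telencephalon (filled) and the midbrain (open). The diamonds of the telencephalon, at 1.67, 1.11 and 1.55, lie to the right of every circle, and these genes were chosen for high values there. The rightmost circle is that of the opioid-list gene pomcb, at 0.87 in the telencephalon, and FSTL3 lies farthest to the left at -1.63.

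The genes most like each member over the 15 telencephalon arrays, among 12121 genes whose symbol is not a clone or locus name, were found by Pearson correlation. The likeness includes the class difference that chose the members, and all points share arrays. For nmbb they were mknk1 (r = 0.88), PNP (0.87) and syt13 (0.85). Over the 16 midbrain arrays the r of these was 0.61, -0.01 and 0.38. For pnocb they were myripa, NOC2L and PHYHIPL, each with r = 0.85, and with 0.01, 0.63 and 0.38 in the midbrain. For inhba they were CNR2 (r = 0.91), PRPSAP2 (0.89) and ftr51 (0.87), with 0.52, -0.29 and 0.53 in the midbrain.

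Neighbours on the chromosome were looked up for nmbb and pnocb, but not for inhba, in the order of genes in RefSeq, in an assembly other than that of the arrays. Only protein-coding genes with a symbol other than a LOC name were kept in that order. For nmbb the nearest genes with a row were pstpip1b, tpma, TMED3 and si:ch211-107o10.3, and for pnocb si:ch211-63o20.7, ELP3, il17a/f3 and emilin1a. Of these 8 genes 0 were called by limma between wild and domesticated fish in either region (1.91% and 0.786% of all genes). Under an unadjusted p of 0.05 were 1 in the telencephalon and 2 in the midbrain, where 15.4% and 11.4% of all genes were. The gene next to pnocb among those kept, si:ch211-63o20.7, differed by 0.55 in the telencephalon (SE 0.29, adjusted p = 0.367, limma) and by 0.55 in the midbrain (SE 0.28, adjusted p = 0.463).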

How the data were processed

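The values are log2 expression values per gene that the authors deposited, summarised with RMA on NimbleGen single-colour arrays and the Zv9 annotation, per the submitters' processing notes; that they are on a log2 scale was read from the values. Depth has no equivalent here, and the number of arrays limits the precision. One row without a gene was left out. Each gene was fitted with limma 3.58.1 (R 4.3.3) on 8 means, 1 per population in each region, plus the sex effect of that region, or, for interactions with sex, on 16 means. The spread of a gene was estimated over both regions together. P-values were adjusted by Benjamini-Hochberg over 15648 genes, with a threshold of 0.05, and the scripts were tested on simulated data. The members and gene lists were chosen with earlier results of these data known. Other genes were named by the smallest p in a list, by a call in a test or by likeness to a member. Recurring numbers were taken to pair the regions because all 15 pairs of arrays correlated, with r from 0.12 to 0.54. Exact permutation tests used Python 3.11.15. Alternatives were dim-gene filters, moderation, weights, scaling, covariates, blocks and left-out arrays or populations.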

Additional observations from a re-analysis of the deposited data

Results flagged for a closer look

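One result was marked because the same contrast differed between groups. In the wild telencephalon the male minus female difference of nmbb was higher in Nadia than in Pargana by 2.80 (adjusted p = 0.00478, limma), with both Nadia males above both Nadia females and both Pargana males below both Pargana fish labelled female, 1 of which has a sex label in doubt. Of 21 groups tested for a sample far from the others, 0 had one.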

How the results depend on the processing

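Of the results on the 3 genes, 490 repeats under other settings kept their direction where called and their side of the threshold, and 2 lost the call. This count and that of the repeats without 1 array, below, include the contrast that chose the genes. That contrast had no test and so no side of the threshold. Most of the other results were not called, so that a kept side mostly means a call still absent. The contrast of nmbb between the sexes of Nadia and Pargana in the telencephalon was 2.80 with an adjusted p of 0.155 when each region was fitted alone. The region difference of nmbb was -0.49 (adjusted p = 0.0954) without Scientific Hatchery. Of the repeats without 1 array, 1388 kept their side and 1 gained a call: the sex contrast between the wild populations for pnocb ranged from 0.52 to 2.31, the highest without Pargana male 85. Without the only Scientific Hatchery male of a region the interaction of sex and domestication cannot be fitted there. With the array number as a replicate block no call changed, and the region difference of nmbb was -0.80 (adjusted p = 0.000683), while 12 of 15 telencephalon arrays correlated best with their own number. The adjusted p of the midbrain wild minus domesticated difference of inhba came closest to the threshold with array weights, at 0.0574. The repeats without Pargana 21 and the sex contrast between the wild populations were chosen after seeing the data.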
